A study of Mus musculus with 24 samples.

Results

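Macrophages of the liver and microglia of the brain were followed through 35 genes that mark these cells or their states, in male db/db and db/+ mice given water, sucrose or brazzein to drink. The members were taken by gene symbol from the deposited counts, and 35 of 35 were found among 55797 gene names. They fell into 7 Kupffer cell genes (Clec4f, Vsig4, Timd4, Marco, Cd163, Cd5l, Siglec1), 4 lipid-associated genes (Trem2, Gpnmb, Spp1, Cd9) and 4 other activation genes (Lgals3, Mmp12, Itgax, Clec7a). The others were 2 monocyte genes (Ccr2, Ly6c2), 4 microglia genes (P2ry12, Tmem119, Cx3cr1, Aif1), 3 complement C1q chains (C1qa, C1qb, C1qc), 2 signalling adaptors (Tyrobp, Fcer1g) and 9 genes shared by macrophages at large. The db/db mice carry a defective leptin receptor on both chromosomes and become obese and diabetic, whereas db/+ mice keep a working copy. Brazzein is a sweet-tasting plant protein. Each tissue gave 12 poly(A) RNA libraries, namely 2 each from db/db mice on water, sucrose and brazzein and 2 each from db/+ mice on the same drinks. All mice were labelled as strain C57/BL6 with a treatment entry of 16 weeks. The sources used here do not give their age, the brain region or whether replicates were separate animals or pools. The p-values therefore measure the spread between these samples, which may be technical.

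Kupffer cells are the macrophages that live in the liver sinusoids, where they take up particles, lipoproteins and aged red cells. Lipid-associated macrophages are a state described in fatty liver and fat tissue, in which TREM2, a lipid-sensing receptor, signals through the adaptor TYROBP and genes of lysosomal lipid handling are switched on. Microglia are the resident macrophages of the brain, and they share CSF1R, C1q and TREM2 with Kupffer cells while keeping markers of their own, such as P2RY12 and TMEM119.

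Library totals ran from 60384569 to 79385804 estimated counts in liver and from 58287665 to 77772849 in brain. Levels are given as CPM, the count divided by the scaled library size and multiplied to a common total. The tissue labels matched the markers. Clec4f, a lectin made by Kupffer cells, was at 35.5 to 69.7 CPM in db/db livers and 26.9 to 95.6 CPM in db/+ livers, and it was listed at 0 in all 12 brains. Tmem119, a microglial membrane protein, was at 18.3 to 21.98 CPM in db/db brains and 20.2 to 23.98 CPM in db/+ brains, and it stayed under 1 CPM in every liver. Liver db/+ sucrose replicate 2 stood apart, with the highest db/+ value for 26 of the 35 members. Where it moved a member's edgeR call for genotype over drinks in liver, or a reported median log2 difference, the value without it is given.

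The promoters of Trem2 and Gpnmb, lipid-associated members that were higher in every db/db liver than in any db/+ liver, and of Clec4f and Marco, from the Kupffer cell group, are shown here as RefSeq gives them on GRCm38.p6. Each runs 5′ to 3′ on the gene's own strand, from 250 bases before the start to 50 after it. Capitals mark matches, on either strand, to the PU.1 core GAGGAA or the AP-1 motif TGANTCA.
Trem2 (chr17:48346151-48346450, plus strand): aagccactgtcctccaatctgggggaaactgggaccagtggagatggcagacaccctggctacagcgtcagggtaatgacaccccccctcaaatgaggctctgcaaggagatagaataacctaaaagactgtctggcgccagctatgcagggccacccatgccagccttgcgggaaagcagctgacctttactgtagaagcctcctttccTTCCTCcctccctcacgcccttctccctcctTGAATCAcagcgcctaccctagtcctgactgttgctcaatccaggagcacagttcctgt
Gpnmb (chr6:49036268-49036567, plus strand): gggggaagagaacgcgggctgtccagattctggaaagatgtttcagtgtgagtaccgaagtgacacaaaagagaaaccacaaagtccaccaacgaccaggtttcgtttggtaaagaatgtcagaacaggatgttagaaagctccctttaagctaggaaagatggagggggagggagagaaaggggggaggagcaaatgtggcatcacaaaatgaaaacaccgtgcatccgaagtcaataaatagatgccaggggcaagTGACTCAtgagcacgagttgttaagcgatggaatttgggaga
Clec4f (chr6:83656067-83656366, minus strand): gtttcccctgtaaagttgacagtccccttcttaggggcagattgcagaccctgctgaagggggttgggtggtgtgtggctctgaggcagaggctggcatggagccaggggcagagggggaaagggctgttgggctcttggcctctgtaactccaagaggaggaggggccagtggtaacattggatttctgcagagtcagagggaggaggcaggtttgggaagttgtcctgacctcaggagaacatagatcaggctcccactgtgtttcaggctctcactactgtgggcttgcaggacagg
Marco (chr1:120504975-120505274, minus strand): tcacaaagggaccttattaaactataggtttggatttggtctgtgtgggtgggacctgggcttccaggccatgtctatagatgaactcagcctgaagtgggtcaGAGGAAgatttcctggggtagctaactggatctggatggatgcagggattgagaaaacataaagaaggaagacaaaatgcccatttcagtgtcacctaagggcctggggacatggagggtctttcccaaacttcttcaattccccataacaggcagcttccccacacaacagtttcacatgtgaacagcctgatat

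PU.1 is the transcription factor that myeloid cells are built on, and AP-1 is a factor induced by many stimuli. The promoter table held 33 promoters for 28 of the 35 members, and no entry for the other members was matched. The PU.1 core was found in 17 of these 33 promoters, against 28.3% of all 32851 promoters of the same length. The AP-1 motif was found in 6 of the 33, those of Trem2, Gpnmb, Cd68, Itgax, Mmp12 and Ms4a7, against 7.81% of all promoters. The E-box CACGTG, which MITF and TFE factors of the lysosome programme can bind, was found in 1 of the 33, that of P2ry12, against 7.15% of all promoters. A match of letters is a description and was not tested against binding.

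In liver, many macrophage genes were higher in the db/db mice, and the lipid-associated and other activation lists had greater median differences (1.97 and 2.43 on the log2 scale) than the Kupffer cell list (0.25). Without db/+ sucrose replicate 2 these medians were 2.06, 2.80 and 0.57 in the same order of lists. The lipid-associated median falls between Trem2 (3.20) and Gpnmb (5.62) above it and Cd9 (0.74) and Spp1 (0.67) below it. Averaged over the drinks, 16 of the 35 members were called higher and 0 lower by edgeR's quasi-likelihood test at an adjusted p under 0.05. Of all 19352 liver genes tested, 7.91% were called higher and 7.27% lower. The median log2 difference of the members was 1.07 with 31 of 35 above 0, against -0.03 over all genes tested. Without db/+ sucrose replicate 2 the member median was 1.35 with 32 above 0. By list, the calls were 3 of 4 lipid-associated, 3 of 4 other activation, 2 of 2 monocyte, 1 of 7 Kupffer cell, 1 of 4 microglia, 1 of 3 C1q, 1 of 2 adaptor and 4 of 9 shared macrophage genes. In whole tissue, fewer or more cells of a type and less or more RNA per cell cannot be told apart.

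**Figure D1:**
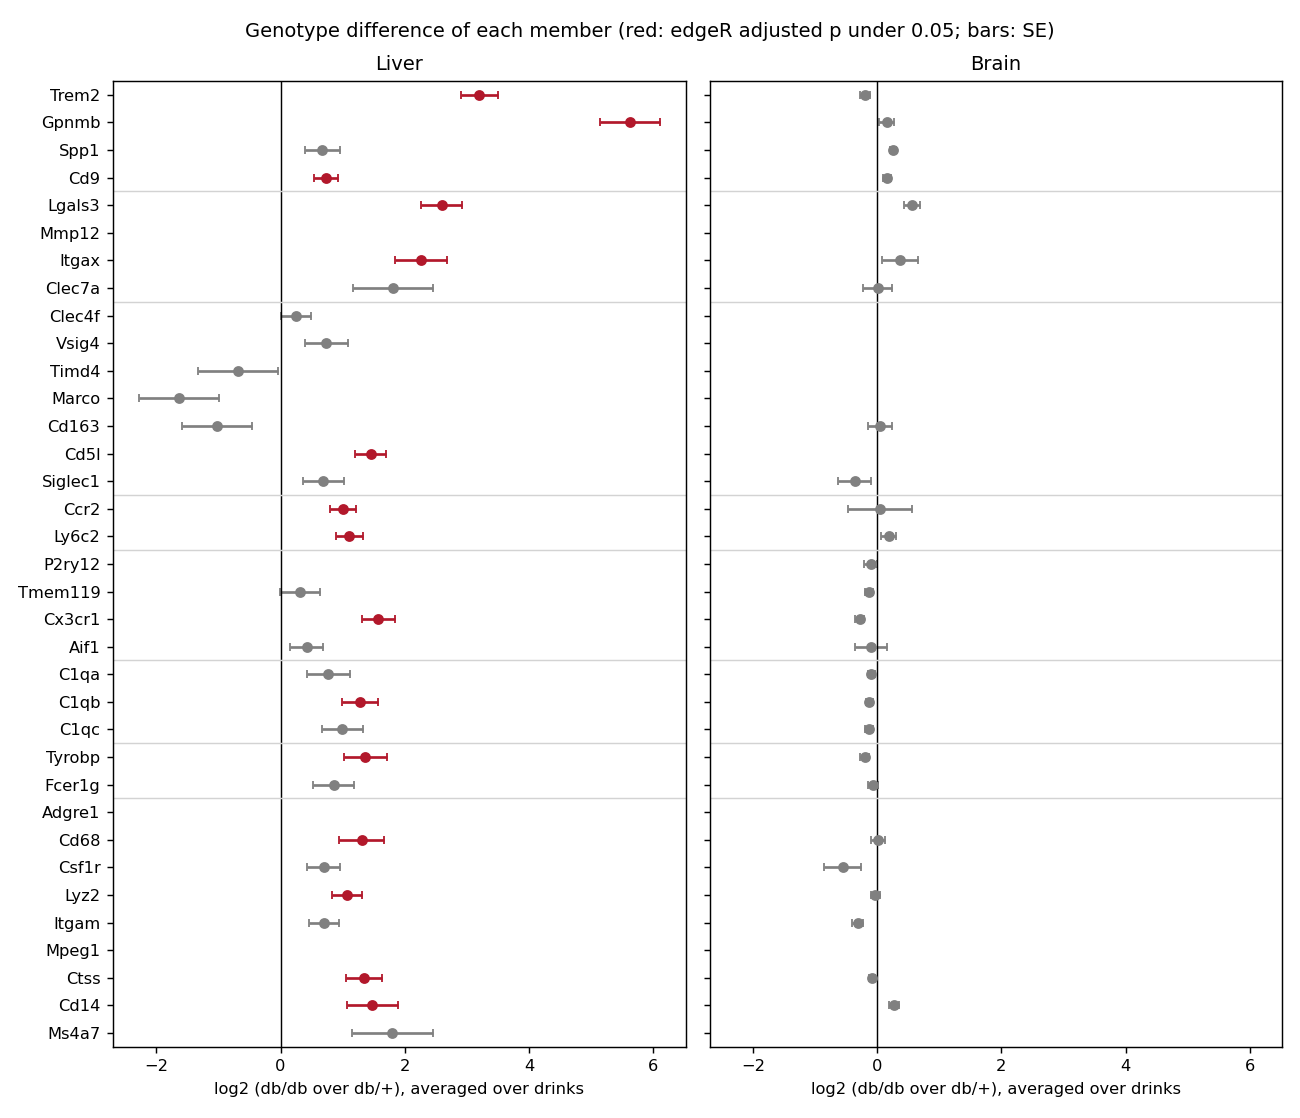
Log2 difference of db/db over db/+ libraries for each member, averaged over drinks, in liver (left) and brain (right), with horizontal bars for the SE; red points passed an edgeR adjusted p under 0.05, and grey lines divide the lists. Liver points run up to 5.62 for Gpnmb, and the brain points that are drawn stay near 0. Members not tested are left out. Members with low or uneven estimates are left out, namely Mmp12, P2ry12, Adgre1 and Mpeg1 in liver and Timd4, Adgre1, Mpeg1 and Ms4a7 in brain. The log2 differences of those brain members were -3.76, -1.71, 3.98 and -1.17 in the same order, and none was called by edgeR. Siglec1, Itgax and Clec7a are drawn at brain levels similar to that of Ms4a7.

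Trem2, the lipid-sensing receptor, had a lowest, median and highest level of 1.79, 2.97 and 4.57 CPM over the 6 db/db livers, against 0.169, 0.307 and 0.652 CPM over the 6 db/+ livers. Every db/db library lay above every db/+ library, and the log2 difference was 3.20 (SE 0.30, edgeR adjusted p = 0.00108). Gpnmb encodes a membrane glycoprotein of lysosomes in lipid-laden macrophages. Its levels were 3.21, 5.24 and 12.6 CPM in db/db livers, against 0, 0.196 and 0.291 CPM in db/+ livers. The groups were again apart, with a log2 difference of 5.62 (SE 0.48, edgeR adjusted p = 0.00074), whose size rests on db/+ values near 0. Over the 16 alternative settings that difference ran from 5.33 to 7.01, and that of Trem2 from 3.08 to 3.41.

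The other lipid-associated members moved less. Cd9, a tetraspanin of many cell types, was at 18.3, 25.8 and 33.4 CPM in db/db livers, against 6.54, 14.6 and 25.9 CPM in db/+ livers. The ranges overlapped, since both db/+ sucrose livers reached the db/db levels. With all libraries Cd9 was called, with a log2 difference of 0.74 (SE 0.19, edgeR adjusted p = 0.0391), which was 0.72 without db/+ sucrose replicate 2. That call was kept in 2 of the 12 fits that left out 1 library each. Spp1 encodes osteopontin, a secreted phosphoprotein also made by bile duct cells. Spp1 levels were 27.9, 46.01 and 62.6 CPM in db/db livers, against 14.5, 29.3 and 37.7 CPM in db/+ livers, with a log2 difference of 0.67 that was not called (SE 0.28, edgeR adjusted p = 0.140). The groups overlapped, and db/db sucrose replicate 1 lay below 4 of the db/+ libraries. Of 8 bile duct genes, 7 were tested and 0 called, and their summed level was 11.5 to 19.9 CPM in db/db livers and 12.04 to 24.5 CPM in db/+ livers.

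Of the other activation genes, Lgals3, which encodes the sugar-binding galectin-3, was at 18.1, 21.8 and 42.5 CPM in db/db livers, against 2.16, 3.65 and 10.1 CPM in db/+ livers. The groups did not overlap, and the log2 difference was 2.59 (SE 0.33, edgeR adjusted p = 0.00326). Itgax, the CD11c integrin of dendritic cells and activated macrophages, was at 1.00, 1.66 and 3.34 CPM in db/db livers, against 0.156, 0.390 and 0.687 CPM in db/+ livers. It too was higher in every db/db library, by 2.27 on the log2 scale (SE 0.42, edgeR adjusted p = 0.0121). Mmp12, the macrophage elastase, was at 0.0658, 8.02 and 14.9 CPM in db/db livers, whereas it was listed at 0 in 5 db/+ livers and at 0.261 CPM in brazzein replicate 2. It was called higher (edgeR adjusted p = 0.0174), and no fold is given against a group at or near 0. The lowest db/db library, brazzein replicate 1, lay below that db/+ library. Clec7a, the beta-glucan receptor dectin-1, was at 0.252, 6.99 and 13.9 CPM in db/db livers, against 0.913, 1.54 and 3.8998 CPM in db/+ livers, and was not called (log2 difference 1.81, SE 0.64, edgeR adjusted p = 0.0961). Its low db/db value came from water replicate 1 alone, and the other 5 db/db libraries were at 5.29 CPM or more.

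**Figure D2:**
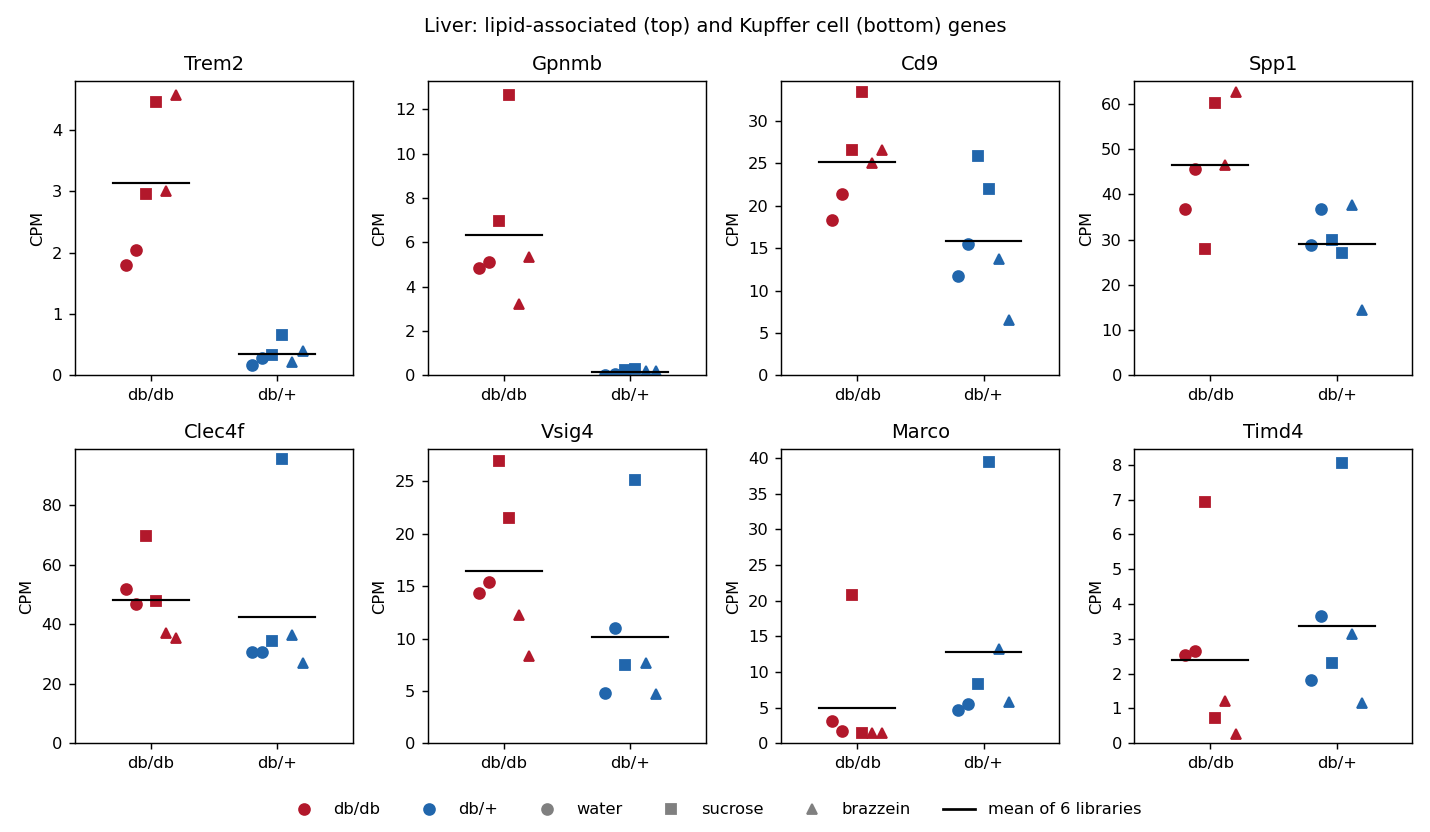
Level in CPM of the 4 lipid-associated genes (top row) and 4 Kupffer cell genes (bottom row) in each liver library, db/db left of db/+, with 1 point per library, shapes for the drink and a bar for the mean of 6 libraries. Trem2 and Gpnmb do not overlap between genotypes. In the bottom row the highest db/+ point is db/+ sucrose replicate 2 in each panel.

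The Kupffer cell genes did not move as 1 group, and 4 of the 7 had log2 differences above 0. Without db/+ sucrose replicate 2, those of Cd5l, Vsig4 and Siglec1 were 1.51, 1.13 and 1.00, above Cd9 (0.72) and Spp1 (0.67). Marco, Cd163 and Timd4 remained below 0 without it, at -1.12, -0.55 and -0.28. Cd5l, a secreted scavenger protein of tissue macrophages, was the 1 of these 7 genes that was called. Its levels stood at 17.5, 31.998 and 71.3 CPM in db/db livers, against 3.57, 17.9 and 21.6 CPM in db/+ livers (log2 difference 1.45, SE 0.25, edgeR adjusted p = 0.00905). The ranges overlapped, because db/db brazzein replicate 1 and water replicate 2 did not clear the highest db/+ library, and the call was kept in 12 of 12 fits that left out a library. Clec4f had medians of 47.3 CPM in db/db livers and 32.5 CPM in db/+ livers, and its log2 difference was 0.25 (SE 0.24, edgeR adjusted p = 0.530). Without db/+ sucrose replicate 2 that difference was 0.57 and was called (SE 0.14, edgeR adjusted p = 0.0498). Vsig4, a complement receptor of resident macrophages, was at 8.36, 14.8 and 26.99 CPM in db/db livers, against 4.70, 7.56 and 25.1 CPM in db/+ livers. The overlap came from db/+ sucrose replicate 2 and, against the lowest db/db library, db/+ water replicate 2 (log2 difference 0.74, SE 0.34, edgeR adjusted p = 0.183). Siglec1, the sialic acid receptor CD169, spread more within genotypes than between them. Its levels were 0.421, 2.46 and 3.95 CPM in db/db livers, against 0.538, 0.783 and 2.33 CPM in db/+ livers (log2 difference 0.69, SE 0.33, edgeR adjusted p = 0.201).

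The scavenger receptors of the same list had log2 differences below 0 without passing the test. Marco, a receptor for bacteria and particles, was at 1.38, 1.59 and 20.8 CPM in db/db livers, against 4.62, 7.10 and 39.4 CPM in db/+ livers (log2 difference -1.63, SE 0.65, edgeR adjusted p = 0.127). In 5 of the 6 db/db libraries Marco was below every db/+ library, and the exception was sucrose replicate 1. Without that library edgeR called Marco lower, and DESeq2 called it lower with all libraries. Cd163, the haemoglobin scavenger receptor, was at 0.747, 3.84 and 8.56 CPM in db/db livers, against 2.90, 6.04 and 16.8 CPM in db/+ livers (log2 difference -1.03, SE 0.56, edgeR adjusted p = 0.256). Timd4, a receptor for phosphatidylserine on dying cells that marks long-lived Kupffer cells, was at 0.264, 1.88 and 6.94 CPM in db/db livers, against 1.16, 2.72 and 8.06 CPM in db/+ livers (log2 difference -0.68, SE 0.65, edgeR adjusted p = 0.520). Both overlapped widely.

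Set against Csf1r, the growth factor receptor of all these cells, Trem2, Gpnmb and Lgals3 remained apart between the genotypes, while Cd9 and Spp1 overlapped. Per 100 CPM of Csf1r in the same library, Trem2 was at 5.93 to 12.1 CPM in db/db livers and 0.952 to 3.16 CPM in db/+ livers. Gpnmb was at 12.2 to 25.4 CPM in db/db livers and 0 to 1.58 CPM in db/+ livers, and Lgals3 at 46.4 to 85.4 CPM in db/db livers and 14.4 to 22.3 CPM in db/+ livers. None of these ranges overlapped, nor did they per 100 CPM of summed C1q. Marco was at 2.90 to 41.8 CPM per 100 of Csf1r in db/db livers and 22.1 to 87.3 CPM in db/+ livers, with medians of 5.48 in db/db and 46.5 in db/+ livers. Clec4f was at 94.4 to 179.7 CPM in db/db livers and 122.9 to 217 CPM in db/+ livers, and these overlapped, as did Cd163 and Timd4. These ratios carry no test.

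**Figure D3:**
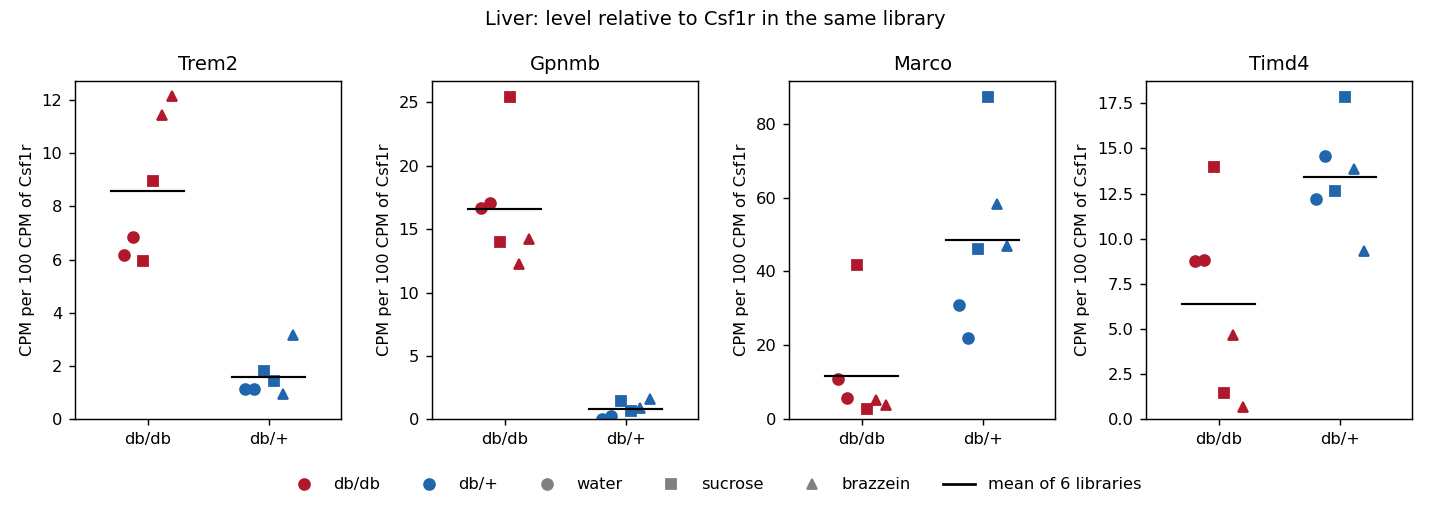
CPM of Trem2, Gpnmb, Marco and Timd4 per 100 CPM of Csf1r in the same liver library, db/db left of db/+, 1 point per library, with shapes for the drink and a bar for the mean of 6 libraries. Trem2 and Gpnmb are apart between genotypes; for Marco, db/db sucrose replicate 1 at 41.8 is the only db/db point within the db/+ range.

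The contrast of the lists was also taken within libraries, as the mean log2 CPM of the 4 lipid-associated genes minus that of the 7 Kupffer cell genes. It averaged 0.83 ± 1.02 in db/db livers and -1.67 ± 0.46 in db/+ livers (SD, n = 6 each). The db/db values ran from -0.52 to 2.24 and the db/+ values from -2.41 to -1.01, so the genotypes did not overlap. Of the difference of 2.505, the lipid-associated genes gave 2.46, and the Kupffer cell genes differed by -0.04. The lipid-associated part came mostly from Trem2 and Gpnmb (log2 differences 3.20 and 5.62), which were low in db/+ livers. Cd9 (0.74) and Spp1 (0.67) differed by about as much as Vsig4 (0.74) and Siglec1 (0.69) of the Kupffer cell list. Without db/+ sucrose replicate 2 the difference was 2.36, of which the lipid-associated genes gave 2.60, and that of the Kupffer cell genes turned to 0.24, below the SD of either genotype. The lowest db/db value was that of sucrose replicate 1, in which Marco and Timd4 were high.

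Genes of recently arrived monocytes were higher in db/db livers. Ccr2, the receptor that draws monocytes toward the chemokine CCL2, was at 1.31, 1.62 and 2.17 CPM in db/db livers, against 0.645, 0.807 and 1.18 CPM in db/+ livers (log2 difference 1.00, SE 0.21, edgeR adjusted p = 0.0181). Ly6c2, a surface antigen of inflammatory monocytes, was at 0.532, 0.681 and 0.835 CPM in db/db livers, against 0.212, 0.328 and 0.421 CPM in db/+ livers (log2 difference 1.11, SE 0.22, edgeR adjusted p = 0.0145). Neither overlapped, although Ly6c2 has a close copy, Ly6c1, and how shared reads were split is not given in the sources used here. Cx3cr1, the fractalkine receptor of microglia, which some monocytes and liver macrophages also make, was at 0.957, 1.35 and 1.98 CPM in db/db livers, against 0.228, 0.448 and 0.623 CPM in db/+ livers. It was higher in every db/db library (log2 difference 1.57, SE 0.26, edgeR adjusted p = 0.00838).

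In all, 7 members (Trem2, Gpnmb, Lgals3, Itgax, Ccr2, Ly6c2 and Cx3cr1) were higher in every db/db liver than in any db/+ liver, against 4.91% of all liver genes tested. The number lower in every db/db liver was 0, against 3.51% of all genes. The other microglia genes were sparse in liver and were not called. Tmem119 was at 0.344 to 0.835 CPM in db/db livers and 0.323 to 0.934 CPM in db/+ livers, and Aif1, a calcium-binding protein of macrophages at large, was at 2.44 to 6.47 CPM in db/db livers and 2.28 to 4.95 CPM in db/+ livers.

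The C1q chains, which start the classical complement pathway and are made by macrophages, had log2 differences of 0.77 for C1qa, 1.28 for C1qb and 1.00 for C1qc. C1qb was called (37.3, 43.6 and 66.8 CPM in db/db livers, against 10.4, 16.0 and 46.8 CPM in db/+ livers; SE 0.29, edgeR adjusted p = 0.0252), while C1qa (edgeR adjusted p = 0.175) and C1qc (edgeR adjusted p = 0.0784) were not. For each chain, db/+ sucrose replicate 2 was the only db/+ library to reach into the db/db range. Tyrobp, the adaptor through which TREM2 signals, was at 8.98, 13.5 and 18.96 CPM in db/db livers, against 2.61, 4.04 and 13.7 CPM in db/+ livers (log2 difference 1.37, SE 0.35, edgeR adjusted p = 0.0344). Again only db/+ sucrose replicate 2 overlapped with the db/db livers. Fcer1g, the adaptor of Fc receptors, was not called (log2 difference 0.86, SE 0.33, edgeR adjusted p = 0.116).

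Of the genes shared by macrophages, Ctss, Cd68, Lyz2 and Cd14 were called higher. Ctss, the lysosomal protease cathepsin S, was at 28.2, 31.1 and 52.3 CPM in db/db livers, against 7.99, 12.1 and 32.7 CPM in db/+ livers (log2 difference 1.34, SE 0.29, edgeR adjusted p = 0.0212). Lyz2, lysozyme, was at 27.03, 34.3 and 67.3 CPM in db/db livers, against 10.9, 15.8 and 48.005 CPM in db/+ livers (log2 difference 1.07, SE 0.24, edgeR adjusted p = 0.0223). Lyz2 has a close copy, Lyz1, so its level is uncertain where reads were shared. Cd68, a late endosomal protein, and Cd14, the lipopolysaccharide co-receptor, had log2 differences of 1.31 and 1.48 with edgeR adjusted p-values of 0.0491 and 0.0478. For all 4, the db/+ library within the db/db range was sucrose replicate 2. Csf1r was not called, at 26.3, 33.8 and 49.7 CPM in db/db livers, against 12.4, 20.4 and 45.1 CPM in db/+ livers (log2 difference 0.69, SE 0.27, edgeR adjusted p = 0.122). Itgam, the CD11b integrin (log2 difference 0.70), and Ms4a7, a membrane protein of monocyte-derived macrophages (1.80), were not called either.

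Estimates of 3 members broke down in liver. P2ry12 and Mpeg1, the pore-forming perforin-2, were each listed at 0 in 6 of the 12 livers, and Adgre1, which encodes the macrophage marker F4/80, in 5. Adgre1 had 9.63 CPM in db/db sucrose replicate 2 and 0 in db/db water replicate 1, beside Csf1r levels of 49.7 and 28.95 CPM in the same libraries. Mpeg1 had 25.3 and 25.9 CPM in the db/db sucrose livers and 20.04 CPM in db/+ sucrose replicate 2. No difference is read from these 3 genes singly, but they remain in the counts and medians over all members.

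Leaving out single libraries moved the count of 16. The count was 9 without db/+ water replicate 1, without db/db sucrose replicate 2 or without db/db water replicate 2, and 19 without db/+ sucrose replicate 2. The last fit added C1qa (edgeR adjusted p = 0.0499), C1qc (0.0326), Clec4f (0.0498) and Csf1r (0.0460) and lost Cd9. Calls of 8 members (Trem2, Gpnmb, Lgals3, Itgax, Mmp12, Cx3cr1, Cd5l and Ly6c2) were kept in all 12 such fits. Ccr2 kept its call in 11, Ctss and Lyz2 in 9, C1qb in 5, Cd14 and Tyrobp in 3, and Cd68 and Cd9 in 2. DESeq2 called 20 members higher and 1 lower, among 12.6% and 12.4% of all genes.

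Further genes of the same programmes were read from lists of non-members. Over all liver genes tested, 7.91% were called higher and 7.27% lower, and 1 call among 10 genes lies near these shares. Of 20 other lipid-associated genes, 19 were tested, and 12 were higher and 0 lower in db/db livers. Cd63, a late endosomal tetraspanin, was at 50.5 ± 24.03 CPM in db/db livers and 7.37 ± 4.72 CPM in db/+ livers (SD, n = 6 each; log2 difference 2.83, edgeR adjusted p = 0.00074). The protease Ctsd (log2 difference 0.88), the fatty acid transporter Cd36 (1.66) and the lysosomal lipase Lipa (0.75) followed by adjusted p. Hepatocytes also make Ctsd, Cd36 and Lipa, and their part in these differences was not tested. Of 12 other Kupffer cell genes, Cd207 was higher (log2 difference 2.31, edgeR adjusted p = 0.00352) and C6, a terminal complement protein, lower (-3.36, edgeR adjusted p = 0.0403). Of 15 growth factors and chemokines, 13 were tested and 3 were higher, including Ccl2 at 1.59 ± 0.691 CPM in db/db livers and 0.346 ± 0.168 CPM in db/+ livers (SD, n = 6 each; log2 difference 2.27, edgeR adjusted p = 0.00836). Ccl3 and Ccl6 were the others. Of 10 myeloid transcription factors, Runx1 was higher (1.15) and Maf lower (-0.65), and of 15 Fc receptor and phagocytosis genes, 14 of them tested, Laptm5, Tlr2, Cybb and Fcgr1 were higher.

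Some genes of other cells also differed between the genotypes, where 7.91% of all liver genes were called higher and 7.27% lower. Of 10 neutrophil genes, 9 of them tested, S100a9 and Mmp8 were higher in db/db livers, and their list summed to 5.31 to 14.3 CPM in db/db livers and 1.55 to 5.80 CPM in db/+ livers, with Ly6g listed at 0 throughout. Of 6 red cell genes 4, all haemoglobin genes, were higher, with sums of 1101 to 3710 CPM in db/db livers and 659 to 1214 CPM in db/+ livers. Of 10 stellate cell genes Col1a1 (log2 difference 1.40) and Rgs5 (0.88) were higher and Hand2 (-0.91) and Des (-0.69) lower. Of 9 dendritic cell genes Xcr1 was lower (-2.82), at 0 to 0.204 CPM in db/db livers and 0.173 to 0.466 CPM in db/+ livers. The dendritic list summed to 7.48 to 11.5 CPM in db/db livers and 7.93 to 17.1 CPM in db/+ livers. Of 12 lymphocyte genes and of 8 hepatocyte genes, 0 were called. Of 10 endothelial genes only Lyve1 was called, at 16.4 to 33.5 CPM in db/db livers and 2.82 to 9.73 CPM in db/+ livers. Lyve1 also stood on a list of 8 genes of macrophages at the borders of the brain. Of these, 6 were tested in liver, and 3 (F13a1, Lyve1 and Pf4) were higher and 0 lower in db/db livers. Which cells the Lyve1 difference came from was not tested. The part of cells other than macrophages in the macrophage gene differences, including that of blood cells in Ccr2 and Ly6c2 and of dendritic cells in Itgax, was not tested.

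Within single drinks, with 2 libraries a group, the calls were confined to Trem2 and Gpnmb. On water, Trem2 was at 1.79 and 2.05 CPM in db/db livers, against 0.169 and 0.286 CPM in db/+ livers (log2 difference 3.06, SE 0.52, edgeR adjusted p = 0.0369). Gpnmb on water was at 4.83 and 5.11 CPM in db/db livers, and at 0 and 0.0572 CPM in db/+ livers (edgeR adjusted p = 0.0181). These were 2 of 35 members, where 0.971% of all liver genes were called higher. On sucrose, Gpnmb was at 6.96 and 12.6 CPM in db/db livers, against 0.259 and 0.291 CPM in db/+ livers (log2 difference 5.14, SE 0.80, edgeR adjusted p = 0.0362). Trem2 was at 2.95 and 4.45 CPM in db/db sucrose livers, against 0.329 and 0.652 CPM in db/+ sucrose livers, and just missed the threshold (log2 difference 2.90, SE 0.51, edgeR adjusted p = 0.0501). The call was 1 of 35 members, where 0.47% of all genes were called higher.

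On brazzein, Trem2 was at 3.00 and 4.57 CPM in db/db livers, against 0.215 and 0.391 CPM in db/+ livers (log2 difference 3.63, SE 0.53, edgeR adjusted p = 0.0197). Gpnmb was at 3.21 and 5.36 CPM in db/db brazzein livers, against 0.197 and 0.196 CPM in db/+ brazzein livers (log2 difference 4.43, SE 0.78, edgeR adjusted p = 0.0401). These were 2 of 35 members, where 0.925% of all genes were called higher. DESeq2 called 6 members higher on water, where 6.09% of all genes were, and 7 on sucrose, where 4.45% were. Mpeg1 was among those on water and P2ry12 among those on sucrose, both listed at 0 in several livers. On brazzein it called 13 higher, where 4.95% of all genes were, and 1 lower (Mpeg1), where 4.9% were. On each drink both Trem2 and Gpnmb were higher in both db/db libraries than in both db/+ libraries. On water the count was 0 without either db/db water library, and 1 without either db/+ water library or any db/db sucrose or brazzein library. On sucrose it was 0 without any 1 of 8 libraries, namely the 4 sucrose livers and the db/db livers on water or brazzein, and 3 without either db/+ brazzein library. On brazzein it was 0 without water replicate 1 or brazzein replicate 2 of db/db livers, and 1 without either db/+ brazzein library, either db/db sucrose library or db/db water replicate 2.

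Between drinks, most macrophage genes had log2 differences above 0 for sucrose against water and below 0 for brazzein against sucrose, but no member was called by edgeR. Sucrose against water, over genotypes, had a member median log2 difference of 0.74 with 31 of 35 above 0, and edgeR called 0 of 35, where 0.0155% of all liver genes were called in either direction. The count at an unadjusted p under 0.05 was 11 of 35, against 5.88% of all genes, and DESeq2 called 3 higher (Cd5l, Gpnmb and Mpeg1), where 0.615% of all genes were. Without db/+ sucrose replicate 2 the median was 0.32 with 30 above 0. In db/db livers alone the median was 0.68 with 33 above 0, and in db/+ livers 0.91 with 30 above 0. Without db/+ sucrose replicate 2 the db/+ median was -0.04 with 14 above 0.

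Brazzein against sucrose shares the sucrose libraries with that comparison, so the opposite sign is no separate evidence. Over genotypes the member median was -0.78 with 3 of 35 above 0, and -0.35 with 5 above 0 without db/+ sucrose replicate 2. EdgeR called 0 of 35, where 0.145% of all genes were called in either direction, and 11 of 35 had an unadjusted p under 0.05, against 14.7% of all genes. DESeq2 called 4 lower (Vsig4, Siglec1, Lyz2 and Mpeg1), where 3.41% of all genes were called lower. In db/db livers the median was -0.55 with 7 above 0, and in db/+ livers -1.05 with 3 above 0, or -0.11 with 11 above 0 without db/+ sucrose replicate 2. Brazzein against water, which shares its water and brazzein libraries with these comparisons, had a median of 0.03 with 19 of 35 above 0 (from -0.24 to 0.18 over the alternatives), and 0 members were called by edgeR, where 0.0723% of all genes were. At an unadjusted p under 0.05 there were 2 of 35 members, against 9.43% of all genes, and DESeq2 called 1 lower (Siglec1), where 1.73% were.

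Within each genotype edgeR also called 0 of 35 members between drinks. For sucrose against water 0.00517% of all genes were called in db/db livers and 0.0155% in db/+ livers. An unadjusted p under 0.05 was reached by 3 members in db/db livers, against 4.27% of all genes, and by 7 in db/+ livers, against 5.98%. DESeq2 called 1 member in db/db livers (P2ry12), among 0.393% of all genes, and 2 in db/+ livers (Gpnmb and Mpeg1), among 1.17%. For brazzein against water edgeR called 0.119% of all genes in db/db livers and 0.00517% in db/+ livers. An unadjusted p under 0.05 was found for 1 member in db/db livers, against 8.57% of all genes, and for 2 in db/+ livers, against 6.06%. DESeq2 called 2 in db/db livers (Siglec1 and Mpeg1), among 2.88% of all genes, and 2 in db/+ livers (Cd5l and Mpeg1), among 0.868%. For brazzein against sucrose edgeR called 0.16% of all genes in db/db livers and 0.0207% in db/+ livers. In db/db livers 5 members had an unadjusted p under 0.05, against 14.7% of all genes. DESeq2 called 4 there (Cd5l, Siglec1, P2ry12 and Mpeg1), among 7.12%. In db/+ livers 8 had an unadjusted p under 0.05, against 8.75% of all genes, and DESeq2 called 1, among 2.24%.

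Siglec1, Cd5l, Vsig4 and Lyz2 were singled out after their values were seen, from the members with DESeq2 calls between drinks. Gpnmb, Itgam, Mpeg1 and P2ry12 had such calls too. For Gpnmb, sucrose against water over genotypes gave a log2 difference of 2.08 (DESeq2 adjusted p = 0.0071). For Itgam, brazzein against sucrose in db/+ livers gave -1.82 (DESeq2 adjusted p = 0.0268). Siglec1 was at 2.87 and 2.05 CPM in db/db livers on water, 3.65 and 3.95 CPM on sucrose, and 0.421 and 0.645 CPM on brazzein. In db/+ livers it was at 0.691 and 1.69 CPM on water, 0.847 and 2.33 CPM on sucrose, and 0.538 and 0.718 CPM on brazzein. Both db/db brazzein livers lay below the other db/db livers. Both db/+ brazzein livers lay below both db/+ sucrose livers and overlapped with the db/+ water livers. Brazzein against sucrose over genotypes gave a log2 difference of -2.08 (SE 0.42, edgeR adjusted p = 0.0957; DESeq2 adjusted p = 0.000184), and brazzein against water -1.56 (SE 0.41, edgeR adjusted p = 0.336; DESeq2 adjusted p = 0.0228).

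Cd5l was at 31.4 and 21.4 CPM in db/db livers on water, 71.3 and 67.4 CPM on sucrose, and 17.5 and 32.6 CPM on brazzein. In db/+ livers it was at 3.57 and 8.37 CPM on water, 16.5 and 19.2 CPM on sucrose, and 21.6 and 20.1 CPM on brazzein. The db/db livers were highest on sucrose, and the db/+ livers lowest on water. The interaction of genotype with brazzein against water was -1.88 on the log2 scale and was not called (SE 0.60, edgeR adjusted p = 0.740). Vsig4 and Lyz2 had their highest means in the sucrose livers of each genotype. For Vsig4 in db/+ mice that rested on replicate 2, since replicate 1 lay below a water and a brazzein library, whereas for Lyz2 both db/+ sucrose livers lay above the other db/+ livers. Vsig4 was at 7.49 and 25.1 CPM in db/+ sucrose livers, and Lyz2 at 19.8 and 48.005 CPM. EdgeR called 0 of 35 members in each of the 3 interactions of genotype with drink, where 0.0155% of all genes were called for sucrose against water and 0.0672% for each of the others. At an unadjusted p under 0.05 there were 0 members for sucrose against water, 3 for brazzein against water and 3 for brazzein against sucrose, against 4.97%, 6.22% and 10.3% of all genes. DESeq2 called 1 in each, among 0.543%, 1.44% and 2.51% of all genes. These were Mpeg1, Mpeg1 and P2ry12, which were listed at 0 in several livers.

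**Figure D4:**
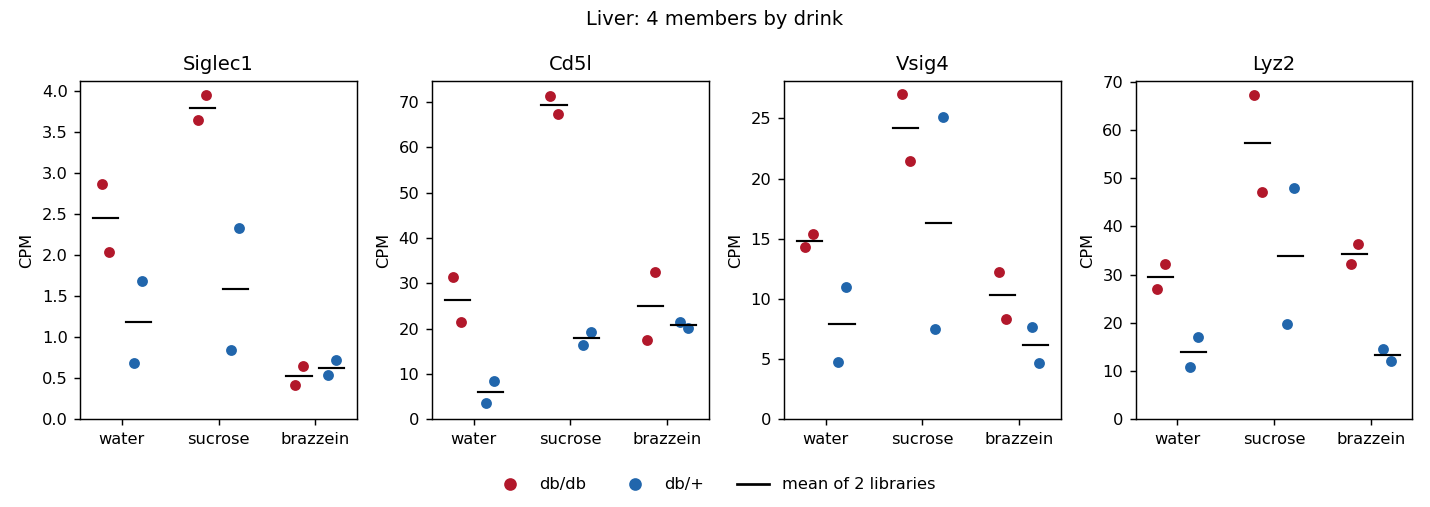
Level in CPM of Siglec1, Cd5l, Vsig4 and Lyz2 in liver by drink, with db/db left of db/+ at each drink, 1 point per library and a bar for the mean of 2 libraries. Siglec1 on brazzein is at 0.421 and 0.645 CPM in db/db livers, below their other drinks, and in db/+ sucrose livers Vsig4 and Lyz2 differ widely between the replicates.

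In brain, the microglial genes differed little between genotypes, with small log2 differences below 0 that edgeR did not call. Of the 35 members, 30 passed the filter on low counts, and Clec4f, Vsig4, Marco, Cd5l and Mmp12 did not. EdgeR called 0 of these 30, where 0.00846% of 23653 brain genes were called in either direction. At an unadjusted p under 0.05 there were 10 of 30, 5 higher and 5 lower, against 13.8% of all genes. DESeq2 called Spp1 and Lgals3 higher and Cx3cr1 and Itgam lower, where 3.64% of all genes were called in either direction. The member median was -0.09 on the log2 scale with 12 of 30 above 0, against 0.00 over all genes.

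Spp1 was at 47.04, 49.5 and 54.7 CPM in db/db brains, against 34.98, 43.5 and 45.6 CPM in db/+ brains, and was higher in every db/db library (log2 difference 0.26, SE 0.05, edgeR adjusted p = 0.140). Cd14 was also apart, at 2.46, 2.52 and 2.80 CPM in db/db brains, against 1.79, 2.21 and 2.30 CPM in db/+ brains (log2 difference 0.27, SE 0.09, edgeR adjusted p = 0.231). These were 2 of 30 members higher in every db/db brain, against 0.871% of all genes. Itgam was the 1 member lower in every db/db brain, against 0.989% of all genes. Its levels were 12.2, 14.4 and 16.2 CPM in db/db brains, against 16.3, 17.9 and 19.5 CPM in db/+ brains (log2 difference -0.31, SE 0.08, edgeR adjusted p = 0.187).

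Cx3cr1 was at 37.5, 39.02 and 44.8 CPM in db/db brains, against 41.1, 50.1 and 52.1 CPM in db/+ brains, with overlap (log2 difference -0.28, SE 0.07, edgeR adjusted p = 0.179). Lgals3 was at 1.40, 1.97 and 2.27 CPM in db/db brains, against 1.05, 1.23 and 1.56 CPM in db/+ brains, with 1 db/db library, water replicate 1, inside the db/+ range (log2 difference 0.56, SE 0.13, edgeR adjusted p = 0.158). Trem2 was at 10.1, 10.6 and 12.1 CPM in db/db brains, against 10.1, 12.7 and 14.5 CPM in db/+ brains (log2 difference -0.20, SE 0.08, edgeR adjusted p = 0.332). Gpnmb was at 2.81, 3.33 and 3.82 CPM in db/db brains, against 2.38, 2.87 and 3.76 CPM in db/+ brains (log2 difference 0.16, SE 0.12, edgeR adjusted p = 0.617). Both overlapped between the genotypes.

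The homeostatic microglia genes P2ry12, an ADP receptor, and Tmem119 had log2 differences of -0.11 and -0.13 in brain, and the 3 C1q chains between -0.13 and -0.09. Csf1r was at 11.3 CPM in db/db water replicate 1 and at 43.4 to 85.3 CPM in the other db/db brains, against 53.3 to 91.0 CPM in db/+ brains, with no such drop of C1qa in that library (39.2 CPM). Cd163, which marks macrophages at the borders of the brain, was at 2.09 to 4.44 CPM in db/db brains and 2.36 to 3.96 CPM in db/+ brains. The lipid-associated genes minus the 4 microglia genes, as mean log2 CPM, averaged 0.29 ± 0.16 in db/db brains and 0.04 ± 0.29 in db/+ brains (SD, n = 6 each), and the genotypes overlapped. Within drinks, and between drinks within or over genotypes, edgeR called 0 of 30 members in brain with all libraries, where 0.0 to 0.00846% of all genes were called. For genotype, 8 members on water, 3 on sucrose and 4 on brazzein had an unadjusted p under 0.05, against 6.79%, 9.32% and 8.15% of all genes. DESeq2 called Spp1 on water, Mpeg1 on sucrose and 0 on brazzein, among 0.613%, 1.45% and 0.93% of all genes. Mpeg1 was uneven in brain, from 0 to 20.3 CPM in db/db brains and from 0.0142 to 6.13 CPM in db/+ brains. Between drinks over genotypes, 4 members for sucrose against water, 3 for brazzein against water and 0 for brazzein against sucrose had an unadjusted p under 0.05, against 5.61%, 4.61% and 4.02% of all genes. DESeq2 called 0 in each, among 0.296%, 0.245% and 0.292%. The member medians between drinks lay between -0.17 and -0.01. Of 14 other microglia genes 13 were tested in brain, and of 20 other lipid-associated genes 19, with 0 calls in either list. Of those 13 microglia genes 0 had a log2 difference above 0 (median -0.16). Their list summed to 256.6 to 280.0 CPM in db/db brains and 279.8 to 310.7 CPM in db/+ brains. Among the members, 0 of 4 microglia genes, 0 of 3 C1q chains and 0 of 2 adaptors were above 0. Of the 19 lipid-associated genes 9 were above 0.

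**Figure D5:**
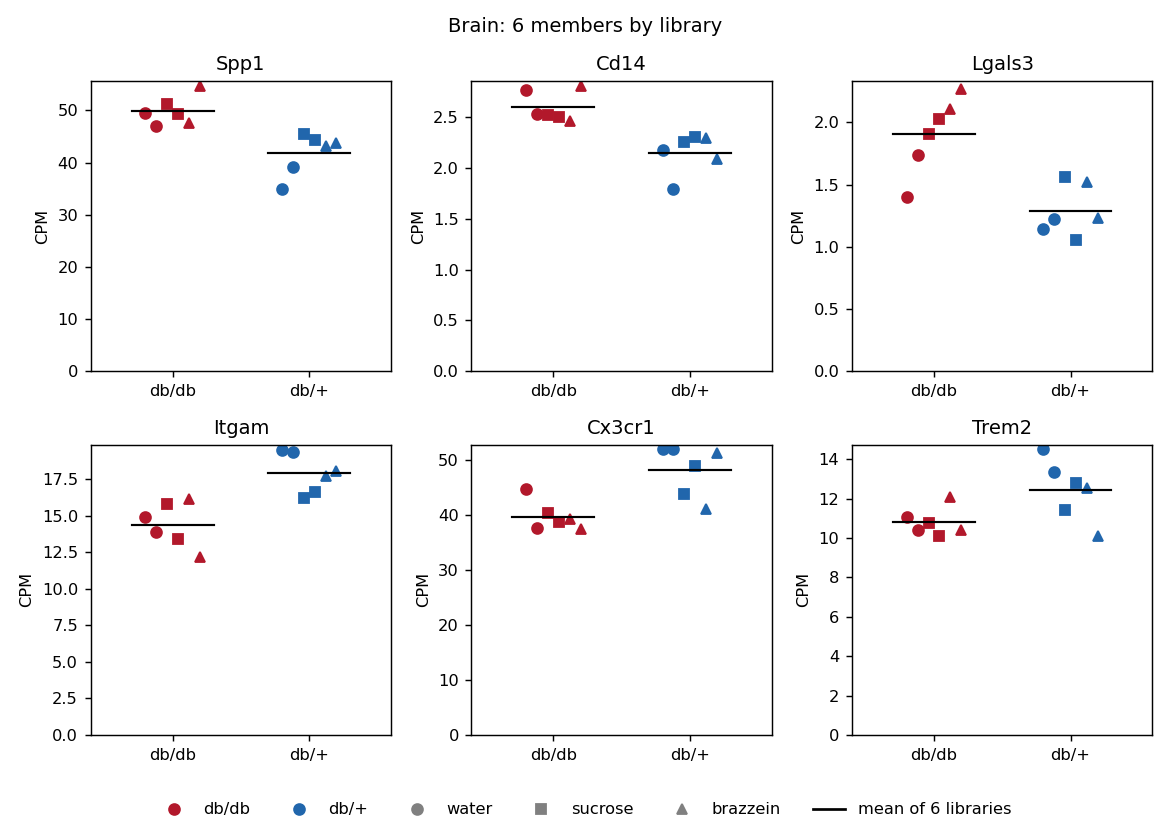
Level in CPM of Spp1, Cd14, Lgals3, Itgam, Cx3cr1 and Trem2 in each brain library, db/db left of db/+, 1 point per library, with shapes for the drink and a bar for the mean of 6 libraries. Spp1 and Cd14 lie higher and Itgam lower in every db/db library, by small amounts, and none passed the edgeR threshold.

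The genotype difference itself was compared between the tissues in a fit of all 24 libraries, in which 25725 genes were tested. Whether brain and liver libraries came from the same mice is not given in the sources used here. The fit treated all libraries as independent. It was more positive in liver for 11 of the 35 members and less so for 0, where 5.41% of all genes were called in the first direction and 4.34% in the second. The differences between tissues, on the log2 scale, were 5.48 for Gpnmb (SE 0.42, edgeR adjusted p = 3.66e-06), 3.41 for Trem2 (SE 0.30, edgeR adjusted p = 1.11e-05), 2.05 for Lgals3 and 1.86 for Cx3cr1. Cx3cr1 and Trem2 were above 0 in liver and below 0 in brain. So were C1qb, Tyrobp, Ctss, Itgam and Lyz2, whose differences between tissues were 1.41, 1.58, 1.43, 1.03 and 1.10. Lyz2 was only slightly below 0 in brain, at -0.03. Itgax and Ly6c2 were the other members called. Without db/+ sucrose replicate 2 of liver, the count was 18, and over all 24 fits that left out a library it ran from 10 to 18. The Itgax call was kept in 9 of these 24 fits.

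Levels between genes were compared only as the deposited FPKM, which are per transcript length. In brain, Ctss (30.9 ± 1.26 FPKM in db/db and 32.1 ± 2.68 in db/+) ranked first among the members in both genotypes, followed by C1qb, C1qa and Cd9 (SD, n = 6 each). In liver, C1qb ranked first in db/db mice at 33.3 ± 10.97 FPKM, where C1qa, Spp1, Lyz2, C1qc, Ctss, Tyrobp and Clec4f came next. In db/+ livers C1qa ranked first at 16.8 ± 12.3 FPKM, then Spp1 and Clec4f, and C1qb was at 12.7 ± 8.82 FPKM. These SDs are spreads between libraries, so they do not settle the order of genes measured in the same libraries. That order was not tested. Trem2 was at 0.723 ± 0.310 FPKM in db/db livers and 0.0598 ± 0.0418 FPKM in db/+ livers, beside 2.17 ± 0.198 FPKM in db/db brains and 2.42 ± 0.317 FPKM in db/+ brains. It ranked 25 of 35 in db/db livers and 32 in db/+ livers. Gpnmb was at 1.35 ± 0.818 FPKM in db/db livers and 0.0309 ± 0.0230 in db/+ livers, against 0.630 ± 0.0640 in db/db brains and 0.571 ± 0.0995 in db/+ brains.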

How the data were processed

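The 24 libraries, 12 from brain and 12 from liver, were grouped by tissue, genotype and drink as their titles state. In 12 of 24 samples a second entry for the genotype contradicts the title, and it was ignored. TRIzol extraction, poly(A) selection and a NEBNext Ultra II kit without a statement of strand are given per the labels' protocols, so overlapping and antisense genes cannot be told apart. The submitters' processing notes name bcl2fastq and the build GRCm39, and no aligner, counter or annotation is named. The deposited files for each sample hold expected counts, that is, whole numbers the authors estimated per gene. Over 13148 genes, the ratio of count to coverage varied across samples with a median coefficient of variation of 1.91%. A deposited table of the series holds coverage signal and FPKM. FPKM served for levels between genes, and coverage only for that ratio. The count files of the db/+ brazzein livers carry each other's replicate number in their headers. FPKM columns of that group were therefore used as group values, and 2 coverage columns that could not be matched to a sample were not used. Since the counts are estimates, no counting intervals were computed, and a gene without counts is said to be listed at 0.

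The expected counts as deposited were fitted with edgeR 4.0.16 in R 4.3.3, with TMM scaling and the filterByExpr filter. Each tissue had a quasi-likelihood fit over its 6 groups, and tissue by genotype had a fit over all 12 groups. Benjamini-Hochberg adjustment ran over all genes tested at a threshold of 0.05, and members were read from those tables. The contrast within libraries used log2 CPM with a prior count of 2. As alternatives, DESeq2 1.42.0 was run, RLE factors replaced TMM, the filter was dropped, the replicate number was a block, the prior count was 0.5 and each library was left out. Leaving out members listed near 0 was added after seeing the data. Every member could be named; full values were due for members called in a comparison and for the lipid-associated and Kupffer cell genes, and other lists gave up to 4 called genes by smallest adjusted p. The members and all lists were chosen with earlier results of these data known. The steps were tested on simulated counts.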

Additional observations from a re-analysis of the deposited data

Results flagged for a closer look

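Within each tissue and genotype, 134 sets of 6 library values were examined for 1 library far from the nearest of the others, and 28 were flagged, where chance flags about 1 in 20. In liver, db/+ sucrose replicate 2 gave 12 of these. It was the highest db/+ library for Clec4f at 95.6 CPM, Vsig4 at 25.1 CPM, Timd4 at 8.06 CPM, Marco at 39.4 CPM, Lgals3 at 10.1 CPM and Clec7a at 3.8998 CPM. The same held for C1qb at 46.8 CPM, Tyrobp at 13.7 CPM, Cd68 at 11.1 CPM, Lyz2 at 48.005 CPM, Ctss at 32.7 CPM and Mpeg1 at 20.04 CPM. Its summed hepatocyte genes were at 80490 CPM, within the 68437 to 96986 CPM of the db/+ livers. It also had the highest db/+ sums of endothelial genes at 171 CPM, stellate cell genes at 322 CPM, dendritic cell genes at 17.1 CPM and neutrophil genes at 5.80 CPM, and the lowest of red cell genes at 659 CPM. Among db/db livers, sucrose replicate 1 stood above the others for Timd4 at 6.94 CPM and Marco at 20.8 CPM, and sucrose replicate 2 for Lgals3 at 42.5 CPM. In db/+ brazzein replicate 2, Mmp12 was at 0.261 CPM while the other db/+ livers were listed at 0.

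In brain, db/db brazzein replicate 2 was the highest db/db library for Cd9 at 50.02 CPM and Cd68 at 10.3 CPM. Db/db sucrose replicate 2 was the highest for Siglec1 at 0.540 CPM and Timd4 at 0.103 CPM, and db/db water replicate 2 for Tyrobp at 10.6 CPM. Among db/+ brains, water replicate 1 was the highest for C1qa at 49.3 CPM, C1qc at 41.5 CPM and Vsig4 at 0.121 CPM. Water replicate 2 was the highest db/+ brain for Ccr2 at 1.01 CPM and Lyz2 at 12.8 CPM. In db/+ brains, Adgre1 was listed at 0 in sucrose replicate 2, and Mpeg1 was at 6.13 CPM in brazzein replicate 2, above the others.

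The genotype difference was larger in liver than in brain, by edgeR's test of the difference itself, for 11 members. On the log2 scale these differences were 5.48 for Gpnmb, 3.41 for Trem2, 2.05 for Lgals3, 1.90 for Itgax, 1.86 for Cx3cr1 and 1.58 for Tyrobp. They were 1.43 for Ctss, 1.41 for C1qb, 1.10 for Lyz2, 1.03 for Itgam and 0.94 for Ly6c2.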

How the results depend on the processing

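No called difference changed direction under the alternatives run. The members' median changed sign under at least 1 alternative in 7 of 16 liver and 7 of 16 brain comparisons, none of them genotype over drinks. In liver, without db/+ sucrose replicate 2, that of sucrose against water was -0.04 in db/+ mice and 0.81 in the interaction (-0.16 with all libraries). Without db/+ water replicate 2, that of brazzein against water in db/+ mice was 0.25 (-0.24 with all libraries). Of the counts and other summary values under alternatives, 522 were labelled the same and 50 moved. A count was labelled the same if it was equal to the main count or near it in ratio, so 0 against 0 was the same. Of single-gene differences, 539 kept their call and 105 lost it. DESeq2 called more members than edgeR. For genotype in liver it called 6 on water, 7 on sucrose and 14 on brazzein. For sucrose against water it called 1 in db/db livers, 2 in db/+ livers, 3 over genotypes and 1 in the interaction. For brazzein against water these were 2, 2, 1 and 1, and for brazzein against sucrose 4, 1, 4 and 1. In brain it called 4 for genotype over drinks, 1 on water (Spp1) and 1 on sucrose (Mpeg1). The cause of these differences was not tested. With 1 library left out in turn, the liver genotype count ran from 9 to 19, the counts on water from 0 to 2, on sucrose from 0 to 3 and on brazzein from 0 to 2, and the tissue by genotype count from 10 to 18. In brain, the counts for sucrose against water in db/+ mice and its interaction moved through Adgre1, in the fit without db/+ sucrose replicate 1. That fit leaves replicate 2 alone in its group, where Adgre1 was listed at 0. The liver genotype count was 13 with no filter, 16 with RLE factors and 15 without members listed near 0. Same-numbered replicates did not deviate together: over 15 pairs of groups, correlations ran from -0.105 to 0.0921 in liver and from -0.0405 to 0.0404 in brain. With the replicate block the liver genotype count was 13, and that on brazzein was 1.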
